A study of Mus musculus with 11 samples.

Results

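The transcription start sites (TSSs) of splicing factor genes were examined for PU.1 occupancy in murine erythroleukemia (MEL) cells and in ES-EP, erythroid progenitors grown out of embryonic stem cells. The members are the protein-coding genes of the mm9 annotation whose names begin with Srsf, Sf3a, Sf3b, Snrp, Prpf or U2af, which gives 47 of 22,359 protein-coding genes, and the rule uses names only. They comprise 11 Srsf, 8 Sf3a and Sf3b, 12 Snrp, 13 Prpf and 3 U2af genes. Reads were counted in the 500 bp centred on 1 TSS per gene, the one used by most of its protein-coding transcripts, with ties going to the most upstream start. Several distinct starts are annotated for 26 members, and the tie rule set the windows of Prpf6, Srsf1 and Srsf12, among others.

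PU.1 was immunoprecipitated with the antibody T-21 from MEL cells (DS19, labelled as clone 4), a leukemic erythroblast line that stably carries GATA-1/ER, a fusion of GATA-1 with the estrogen receptor ligand domain, and from ES-EP. The latter are not leukemic and are kept in medium that contains dexamethasone, IGF-1, Epo and SCF. ChIP-Seq recovers and sequences the DNA bound by a protein in fixed chromatin, and input DNA from the same kind of chromatin, not immunoprecipitated, served as the control of each cell type. The letter in a sample's label, A or B, was read as the ChIP preparation, which the sources do not state, and on that reading each cell type has 2 preparations of 2 summed libraries each, with 1 input library for MEL cells and 2 for ES-EP. The MEL values therefore come from 1 clone with 1 input, and no inducer, knockdown or isotype control enters the comparisons. The labelled cell types could not be checked against marker genes, because the files hold DNA positions and no expression. In a bulk ChIP, more cells with an occupied site and more occupancy per cell cannot be told apart.

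Pre-mRNA splicing is carried out by the spliceosome, which is built from small nuclear ribonucleoproteins (snRNPs) and many accessory proteins. SR proteins, encoded by the Srsf genes, bind exonic enhancers and help to define exons. U2AF recognizes the 3′ splice site, SF3A and SF3B are parts of the U2 snRNP that engage the branch point, Sm proteins form the ring around the spliceosomal RNAs, and Prpf proteins act in the tri-snRNP and in the remodelling of the spliceosome. These genes are expressed in most cells and typically have CpG-rich promoters. PU.1 is an Ets family factor, and Ets proteins recognize DNA around a GGAA core.

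Total reads on assembled nuclear chromosomes, used for scaling, were 5697937 and 6987141 in MEL preparations A and B, 4278560 in the MEL input, 6284725 and 7095855 in ES-EP preparations A and B, with 2437650 and 5051235 for the first and the second input of ES-EP. At this depth the median member window held between 8 and 21 reads in a ChIP preparation and between 2 and 9 reads in an input, so that a single gene is measured with a wide counting error. Levels are given as RPM, the reads of a window scaled in the reads-per-million manner by the total reads of the library. The members together held 85.8 and 177 RPM in MEL preparations A and B against 40.7 in the MEL input. In ES-EP they held 254 and 134 RPM in preparations A and B against 63.6 and 88.7 in the inputs. All 4 preparations lay above every input of their cell type, and the 2 preparations of a cell type differed from each other by more than the lower one differed from its inputs. Srsf4 alone supplied from 8.71 to 17.0% of the ChIP reads of the members, and without it the sums were 77.2 and 162 RPM (MEL cells), then 211 and 113 (ES-EP).

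Occupancy was compared with input in a limma-voom fit over all 22,359 TSSs, in which the log2 difference of ChIP and input was tested. In MEL cells, 3 of 47 members (6.38%) were called higher at an adjusted p below 0.05, namely Srsf4, Srsf6 and Prpf4b, where 2.84% of all TSSs were. In ES-EP, 4 of 47 (8.51%) were called higher, namely Srsf4, Sf3b1, Sf3b5 and Sf3a3, where 2.24% of all TSSs were. No member was called lower in either cell type, where 0.0984% and 0.085% of all TSSs were. Srsf4 was the only member called in both cell types in this fit. In windows of 200 bp, Sf3b1, Snrpe and Srsf9 were called in both cell types and Srsf4 in MEL cells only. All TSSs called higher in those windows numbered 1037 in MEL cells and 681 in ES-EP. In the main windows of 500 bp, the median log2 difference of the members was 1.05 in MEL cells and 0.88 in ES-EP, against 0.47 and 0.14 at the other TSSs. The size of that gap depends on the windows counted. In MEL cells it fell from 0.58 to 0.22 in windows of 200 bp (0.42 against 0.20), to 0.29 in 1000 bp and to 0.24 with at least 20 reads per window, and in ES-EP it went from 0.74 to 0.75, 0.66 and 0.39 under the same changes. Counting every distinct TSS gave the smallest gaps, 0.15 in MEL cells (0.65 against 0.50) and 0.35 in ES-EP (0.53 against 0.18). Left-out preparations moved the medians too. The MEL median of the members was 1.61 without preparation A and 0.69 without B, with the other TSSs at 0.88 and 0.24. The ES-EP median was 0.63 without A and 1.20 without B, with the other TSSs at 0.10 and 0.33. Base composition moves with the gap between members and other TSSs, and its part in it was not tested: 93.6% of the members and 49.1% of the other TSSs have a CpG observed-over-expected ratio of 0.6 or more. The other TSSs above that ratio had medians of 1.11 in MEL cells and 0.46 in ES-EP, with 5.23% and 3.79% called higher. The MEL median of the members thus lay near that of other CpG-rich TSSs, and the ES-EP median lay above it. Inputs of 0 reads, summed per cell type, were also set to a floor of 3 reads. The medians of the members were then 1.24 and 0.89, against 0.20 and 0.16 at the other TSSs. This floor applied to 3 members and 5633 of 22,312 other TSSs in MEL cells, and to 1 and 3331 in ES-EP. It thus acts mainly on the other TSSs, and the CpG-rich TSSs were not compared under it. Median-ratio scaling over the TSS windows moved the median of the other TSSs by -1.16 (MEL cells) and by -0.52 (ES-EP), and it turned the MEL median of the members to -0.05 (ES-EP 0.39), while the members stayed above the other TSSs by 0.63 and 0.77, against 0.58 and 0.74 with total reads.

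The calls in the preceding comparison depend on single libraries. In MEL cells 7 members passed without preparation A and none passed without preparation B (8 at an unadjusted p below 0.05 in either direction), and in ES-EP none passed without preparation A (7 at an unadjusted p below 0.05) and 7 without preparation B, while without either ES-EP input library no TSS passed in either cell type. The counts over all TSSs moved with them, from 635 to 1138 without MEL preparation A and 117 without B, and from 501 to 148 without ES-EP preparation A and 736 without B. The exact binomial test on summed reads, which covers counting error only, called 14 members higher in MEL cells, where 10.3% of all TSSs were, and 13 in ES-EP, where 9.05% were. It called 10 (21.3%) in both, where 5.93% of all TSSs were, and these members were Prpf38b, Sf3a1, Sf3a2, Sf3b1, Sf3b5, Snrpc, Snrpd1, Srsf3, Srsf4 and Srsf9. Both preparations lay above the input in RPM at 30 members in MEL cells, where 48.7% of all TSSs did, and at 26 in ES-EP, where 29.3% did. The log2 difference was above 0 at 36 members for MEL cells (76.6%), at 40 for ES-EP (85.1%) and at 32 for both (68.1%, where 41.5% of all TSSs were). It was above 0 at 63.9% and 55.1% of the other TSSs and at 83.9% and 72.5% of the other CpG-rich TSSs, so that the share of members lay below that of CpG-rich starts for MEL cells and above it for ES-EP.

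**Figure D1:**
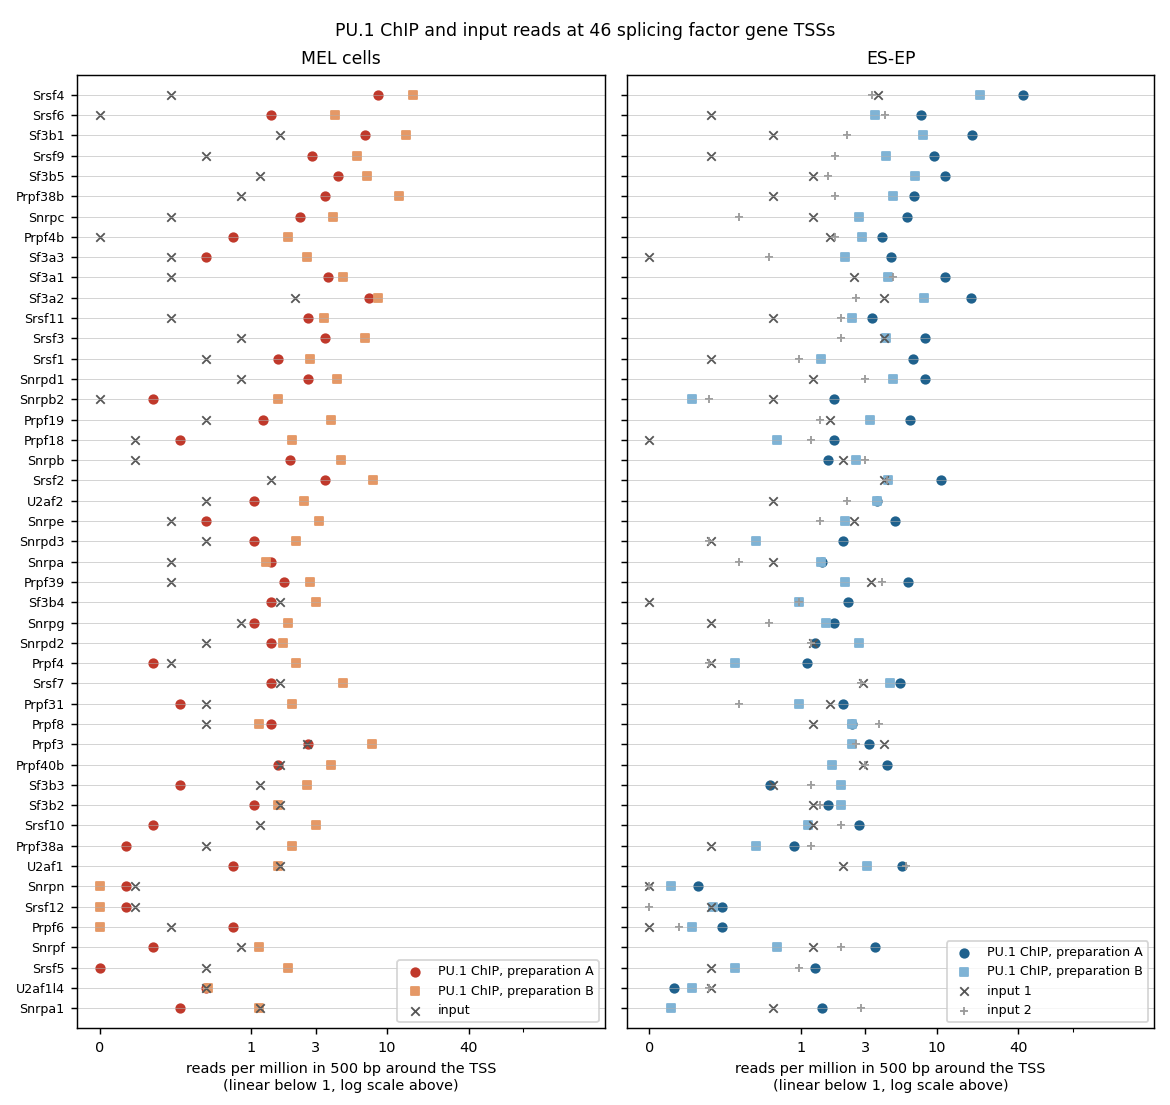
RPM in 500 bp around the TSS of 46 splicing factor genes (left, MEL cells, and right, ES-EP), with 1 point per ChIP preparation (circles and squares) and per input library (crosses); genes are ordered by the mean of their log2 ChIP-to-input differences and the axis is linear below 1 and logarithmic above. Srsf4 reached 8.60 and 15.5 RPM on the left panel, 43.3 and 20.7 RPM on the right, and the genes at the bottom lay among their inputs.

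Among the SR protein genes, Srsf4 held the most ChIP reads in the 500 bp window in both cell types. Its TSS is at position 131429532 of chromosome 4 (forward strand), and its window held 49 MEL reads from preparation A, 108 from preparation B and 2 from the input. In ES-EP it held 272 and 147 reads against 9 and 17. All preparations stood far above all inputs, by 26.5-fold in MEL cells (95% counting interval 7.21 to 221) and 9.02-fold in ES-EP (6.07 to 14.0). The limma log2 differences were 4.31 ± 1.05 (SE, adjusted p = 0.00691) and 3.03 ± 0.71 (adjusted p = 0.00234). Of 20 other settings, 7 lost the call in MEL cells and 8 lost it in ES-EP, windows of 200 bp among the latter (adjusted p = 0.536). Some settings could hardly change a call, here and at the other called members. Their most upstream start is the one already used, and leaving out ChIP of the other cell type removes none of the libraries compared. The reads were not centred on the TSS. Between 200 and 100 bp upstream lay 32 and 74 MEL ChIP reads and 1 input read. The same 100 bp held 195 and 105 ES-EP ChIP reads and 12 input reads. From the TSS to 100 bp downstream, the ChIP preparations held from 1 to 4 reads each.

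The 300 bp upstream of Srsf4 (chr4:131429232-131429531, mm9, forward strand) are shown because the counting window of Srsf4 held the most PU.1 reads of any member. Capitals mark each GGAA core on either strand (TTCC on the reverse strand), extended to the whole word where the core belongs to CCGGAAG or GAGGAAG. The single CCGGAAG, on the strand opposite to the gene and so printed as its reverse complement, lies at position -190 from the TSS, within the 100 bp that held the most reads.
Srsf4: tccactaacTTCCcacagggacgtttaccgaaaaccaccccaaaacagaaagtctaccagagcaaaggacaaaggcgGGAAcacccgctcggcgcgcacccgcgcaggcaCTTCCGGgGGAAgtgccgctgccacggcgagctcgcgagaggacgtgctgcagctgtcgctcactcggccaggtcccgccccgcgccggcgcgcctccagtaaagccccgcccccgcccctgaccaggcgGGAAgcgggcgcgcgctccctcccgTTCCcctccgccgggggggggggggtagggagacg

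Srsf6 was the second SR gene called in MEL cells, with 8 and 29 reads in preparations A and B and none in the input. Taking the input as 3 reads, this is at least 4.16-fold higher (limma adjusted p = 0.00691). Of those reads, 27 came from 1 of the 4 MEL libraries, the second of preparation B, and the call was lost in 8 of 20 other settings. In ES-EP, Srsf6 held 48 and 25 reads against 1 and 21, and preparation B lay below the second input (adjusted p = 0.389). Srsf9 held 16 and 42 reads against 3 in MEL cells, a ratio of 6.52 (2.12 to 32.5), and 60 and 30 against 1 and 9 in ES-EP, a 5.04-fold ratio (2.62 to 10.9). All preparations of Srsf9 were above the inputs, with limma log2 differences of 2.36 ± 0.98 (adjusted p = 0.178) and 2.43 ± 0.76 (adjusted p = 0.0581). In windows of 200 bp, limma called Srsf9 in both cell types (adjusted p = 0.00036 and 0.0012).

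At the low end of the SR genes, Srsf5 held 0 and 13 MEL ChIP reads against 3 and 8 and 4 ES-EP reads against 1 and 5. Its MEL preparations lay on either side of the input. Srsf12 held 1 and 0 MEL reads against 1, and 3 and 3 ES-EP reads against 1 and 0, which is too few to compare. Its window has a CpG ratio of 0.48, below that of the typical member, and a second annotated start 272 bp downstream had 6 MEL ChIP reads against 1 and 13 ES-EP reads against 7. These reads are not scaled by depth, and the ChIP totals were larger than those of the inputs. The other SR genes, Srsf1, Srsf2, Srsf3, Srsf7, Srsf10 and Srsf11, had limma log2 differences between -0.10 and 2.40 in MEL cells and between 0.04 and 1.87 in ES-EP. An Srsf1 start 345 bp downstream held 61 unscaled MEL ChIP reads against 4 and 107 ES-EP reads against 11. Over the 11 SR genes, 2 were called for MEL cells, 1 was for ES-EP, with medians of 1.81 and 0.98.

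The SF3A and SF3B genes encode the U2 snRNP subunits around the branch point, and in 500 bp windows 3 of the 8 were called higher in ES-EP while none was in MEL cells, where 4 had an unadjusted p below 0.05. In windows of 200 bp, limma called Sf3a1 and Sf3b1 in MEL cells (adjusted p = 0.000685 and 0.0320), and Sf3b1, Sf3b5 and Sf3a3 in ES-EP. Sf3b1, the largest SF3B subunit, held 39 and 97 MEL ChIP reads against 7, a 6.55-fold ratio (3.10 to 16.6), and 114 and 56 ES-EP reads against 2 and 11, a 7.32-fold ratio (4.17 to 14.0). Every preparation was above every input, and the limma log2 differences were 2.49 ± 0.87 (adjusted p = 0.0904) in MEL cells and 2.89 ± 0.74 (adjusted p = 0.00757) in ES-EP. Sf3b5, a small subunit of the same complex, held 25 and 50 MEL reads against 5 and 73 and 49 ES-EP reads against 3 and 8. Again the groups did not overlap, with log2 differences of 2.14 ± 0.90 (adjusted p = 0.187) and 2.52 ± 0.73 (adjusted p = 0.0302). Sf3a3 held 4 and 18 MEL reads against 2, and 29 and 15 ES-EP reads against 0 and 4, and its ES-EP log2 difference was 2.83 ± 0.86 (adjusted p = 0.0434). The Sf3a3 call rests on 4 input reads and was lost in 11 of 20 other settings, with an adjusted p of up to 0.827 without the first ES-EP input. The ES-EP calls of Sf3b1 and Sf3b5 were each lost in 8 of 20, including those without preparation A, without either input and in 1000 bp.

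The 150 bp upstream of Sf3b1 (chr1:55084323-55084472, mm9, reverse strand) and of Sf3b5 (chr10:12728106-12728255, mm9, forward strand) are given as 2 of the 4 starts that the exact binomial test called in both cell types and that have no CCGGAAG or GAGGAAG in their 500 bp windows, the others being Sf3a2 and Srsf3. Capitals mark the GGAA cores as before, 4 in Sf3b1 and 3 in Sf3b5.
Sf3b1: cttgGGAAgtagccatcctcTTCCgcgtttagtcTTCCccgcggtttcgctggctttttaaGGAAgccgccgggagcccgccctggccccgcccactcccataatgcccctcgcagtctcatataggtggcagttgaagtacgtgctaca
Sf3b5: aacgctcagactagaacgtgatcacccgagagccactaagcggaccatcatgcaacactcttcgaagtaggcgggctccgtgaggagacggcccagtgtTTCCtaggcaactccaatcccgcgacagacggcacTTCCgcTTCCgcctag

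Sf3a1 held 21 and 33 MEL ChIP reads against 2, a ratio of 9.11 (2.40 to 77.1), and 72 and 31 ES-EP reads against 6 and 24. ES-EP preparation B lay below the second input in RPM, and neither cell type was called in 500 bp windows (limma adjusted p = 0.113 and 0.678). In 200 bp, limma called Sf3a1 in MEL cells (log2 4.38, adjusted p = 0.000685) but not in ES-EP (adjusted p = 0.536). Sf3b2 held 6 and 11 MEL reads against 7, and 10 and 14 ES-EP reads against 3 and 7. Both MEL preparations were below the input in RPM. Sf3a2 had log2 differences of 1.86 and 1.84 in the counting window, and Sf3b3 and Sf3b4 had 0.02 and 0.29 for MEL cells, against 0.20 and 1.59 for ES-EP. All 8 genes were above 0 in ES-EP and 7 of 8 in MEL cells.

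None of the 12 Snrp genes was called in either cell type in 500 bp windows, although 3 in MEL cells (Snrpb, Snrpb2 and Snrpc, all above input) and 3 in ES-EP (Snrpc and Snrpd1 above input, Snrpa1 below it) had an unadjusted p below 0.05. In 200 bp windows Snrpe was called in both cell types and Snrpb in MEL cells. Snrpc, a protein of the U1 snRNP, held 13 and 28 MEL reads against 2, a ratio of 6.91 (1.80 to 59.0), and 38 and 19 ES-EP reads against 3 and 3. All its preparations were above the inputs (adjusted p = 0.202 and 0.134). Snrpb, which encodes a core Sm protein, held 11 and 32 MEL reads against 1, a ratio of 14.5 with a counting interval from 2.47 to 586, and 10 and 18 ES-EP reads against 5 and 15, a ratio of 0.784 (0.426 to 1.47). Snrpb2, a U2 snRNP protein, held 2 and 11 MEL reads against none, 1.46-fold with the floor (counting interval from 1.03 upward), and 11 and 2 ES-EP reads against 2 and 2.

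Snrpe, another Sm protein gene, held 4 and 22 MEL reads against 2 and 31 and 15 ES-EP reads against 6 and 7. Snrpf, of the same ring, held 2 and 8 MEL reads against 4 and 22 and 6 ES-EP reads against 3 and 10, so that ChIP and input overlapped in both cell types. Snrpa1, a U2 snRNP protein, had the lowest mean log2 difference of the 47, with 3 and 8 MEL reads against 5 and 9 and 1 ES-EP reads against 2 and 14. Its ES-EP ratio was 0.350 (0.142 to 0.820) and its limma adjusted p was 0.329, although it was called with median-ratio scaling. That scaling moved the ES-EP median of the other TSSs from 0.14 to -0.38, and the count of all TSSs called lower from 19 to 105. Snrpn, an imprinted relative of Snrpb used mainly in the nervous system, held 1 and 0 MEL reads against 1 and 2 and 1 ES-EP reads against 0 and 0. Its window has a CpG ratio of 0.12 and only 71.0% of its positions carry a 27-base word that occurs once in the genome, so that it can hold fewer uniquely aligned reads. Snrpa, Snrpd1, Snrpd2, Snrpd3 and Snrpg lay between, with log2 differences from 0.50 to 1.71 in MEL cells and from 0.52 to 1.54 in ES-EP.

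Of the 13 Prpf genes, Prpf4b was called in MEL cells and none in ES-EP, where 2 had an unadjusted p below 0.05. Prpf4b, which encodes a kinase of the tri-snRNP, held 5 and 13 MEL ChIP reads and no input read, 2.02-fold with the floor (counting interval from 1.48 upward, limma adjusted p = 0.0423). In ES-EP it held 25 and 20 reads against 4 and 9 (adjusted p = 0.749). The MEL call of Prpf4b was lost in 15 of 20 other settings, the exact binomial test among them (adjusted p = 0.0880), and the densest 200 bp of ChIP reads within 2 kb lay 1050 bp upstream of its TSS. Prpf38b held 20 and 86 MEL reads against 4, an 8.94-fold ratio (3.39 to 33.4), and 43 and 34 ES-EP reads against 2 and 9, a 3.92-fold ratio (2.07 to 8.17). All its preparations were above the inputs, with limma adjusted p = 0.0915 and 0.160.

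Prpf19, the ubiquitin ligase of the complex named after it, held 7 and 27 MEL reads against 3 and 40 and 23 ES-EP reads against 4 and 7. Prpf18, which acts in the second step of splicing, held 3 and 14 MEL reads against 1 and 11 and 6 ES-EP reads against 0 and 6. Prpf6, a tri-snRNP protein, held 5 and 0 MEL reads against 2 and 3 and 2 ES-EP reads against 0 and 1. The TSS used for Prpf6 has a CpG ratio of 0.14, and the start annotated 9448 bp downstream held 21 MEL ChIP reads against 6 and 18 ES-EP reads against 3. These counts, too, are not scaled by the larger ChIP depth. Prpf3, Prpf4, Prpf8, Prpf31, Prpf38a, Prpf39 and Prpf40b had log2 differences between -0.07 and 1.96 in MEL cells and between -0.25 and 0.67 in ES-EP.

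None of the 3 U2af genes was called (none at an unadjusted p below 0.05 in either cell type). U2af2, which binds the polypyrimidine tract, held 6 and 17 MEL reads against 3 and 23 and 26 ES-EP reads against 2 and 11, with all preparations above the inputs. U2af1, which recognizes the AG of the 3′ splice site, held 5 and 11 MEL reads against 7 and 35 and 22 ES-EP reads against 5 and 30, and overlapped its inputs in ES-EP. U2af1l4, a relative of U2af1, held 4 and 5 MEL reads against 3 and 1 and 2 ES-EP reads against 1 and 2.

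**Figure D2:**
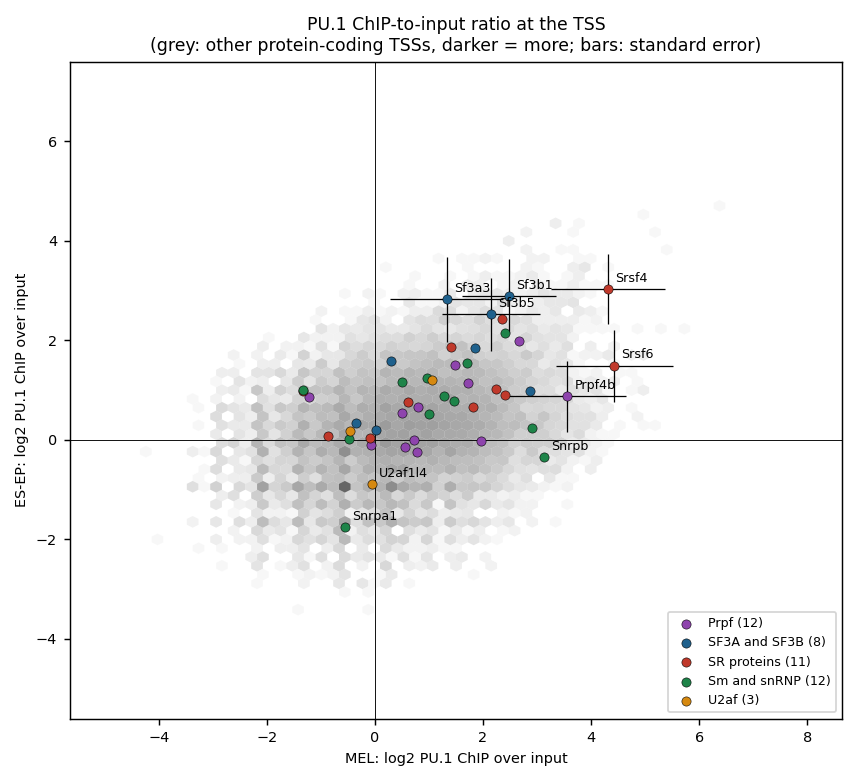
Log2 difference of PU.1 ChIP and input at the TSS in MEL cells (horizontal) and ES-EP (vertical) for 46 members, coloured by group, over the other protein-coding TSSs in grey; bars are standard errors of the limma fit for members called in either cell type. Srsf4 lies at 4.31 and 3.03, Sf3b1 at 2.49 and 2.89, and Snrpb at 3.13 and -0.35 (MEL cells, then ES-EP).

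The position of the reads around the TSS was then examined over 2 kb on either side. In MEL cells the average profile of the members was highest in the 50 bp after the TSS, at 0.246 and 0.515 RPM per TSS in preparations A and B. In ES-EP it was highest between 350 and 300 bp upstream, at 0.813 and 0.372 RPM per TSS, while the other CpG-rich TSSs were highest in the 50 bp after the TSS. The reads between 350 and 150 bp upstream came from few genes, and 4 of them, Sf3a2, Srsf2, Srsf4 and Srsf3, were singled out after their values were seen. They held 1113 of 1351 ES-EP ChIP reads (82.4%) and 497 of 689 MEL ChIP reads (72.1%) of the members in these 200 bp, where none of the other 43 exceeded 31 and 18 reads.

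Sf3a2, a subunit of SF3A, held 70 and 108 MEL ChIP reads in these 200 bp against 2 input reads, a ratio of 30.0 (8.19 to 250), and 239 and 105 ES-EP reads against 3 and 7, a 19.3-fold ratio (10.3 to 40.5). Srsf2, an SR protein gene, held 38 and 87 MEL reads against 2, a ratio of 21.1 (5.71 to 176), and 238 and 106 ES-EP reads against 5 and 5, a 19.3-fold ratio (10.3 to 40.5). Srsf3 held 30 and 54 MEL reads against 1, a ratio of 28.3 with an interval from 4.95 to 1132, and 72 and 46 ES-EP reads against 4 and 9, a 5.08-fold ratio (2.86 to 9.82). All preparations of these genes stood above all inputs. In these 200 bp Sf3a2 and Srsf2 held 344 ES-EP ChIP reads each and Srsf4 held 307. The Srsf4 reads were densest between 200 and 100 bp upstream, partly outside them, so the peaks were not compared in full. The signal of Sf3a2 and Srsf2 reaches past the edge of the 500 bp counting window, in which their limma log2 differences were 1.86 and 1.81 for MEL cells, against 1.84 and 0.67 for ES-EP. In a window of 1000 bp the members called in ES-EP were Sf3a2, Sf3a3, Srsf2 and Srsf4, among 454 of all TSSs.

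The same 200 bp are shown for Sf3a2 (chr10:80260593-80260792, forward strand), Srsf2 (chr11:116714559-116714758, reverse strand) and Srsf3 (chr17:29169268-29169467, forward strand), all mm9, because they hold these upstream reads. Capitals are as before, and both Sf3a2 and Srsf2 contain 1 GAGGAAG, in the direction of the gene in Sf3a2 and as its reverse complement in Srsf2. The Sf3a2 stretch lies inside Plekhj1 on the opposite strand and includes 68 bp of its coding exon. The Srsf2 stretch lies inside Mfsd11 on the opposite strand and of 1110005A03Rik and overlaps 150 bp of an Mfsd11 exon. The Srsf3 stretch overlaps no annotated gene.
Sf3a2: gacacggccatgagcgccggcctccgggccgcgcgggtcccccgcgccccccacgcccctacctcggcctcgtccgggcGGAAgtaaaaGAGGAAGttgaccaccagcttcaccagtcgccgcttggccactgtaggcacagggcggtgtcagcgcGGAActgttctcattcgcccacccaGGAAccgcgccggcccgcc
Srsf2: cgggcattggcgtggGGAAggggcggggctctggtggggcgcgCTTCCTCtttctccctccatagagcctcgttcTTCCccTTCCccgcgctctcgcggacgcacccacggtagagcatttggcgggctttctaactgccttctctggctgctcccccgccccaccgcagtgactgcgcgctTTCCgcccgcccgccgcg
Srsf3: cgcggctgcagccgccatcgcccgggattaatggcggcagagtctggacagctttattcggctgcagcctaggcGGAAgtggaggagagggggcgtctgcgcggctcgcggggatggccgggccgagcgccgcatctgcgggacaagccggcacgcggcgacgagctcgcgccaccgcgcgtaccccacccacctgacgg

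**Figure D3:**
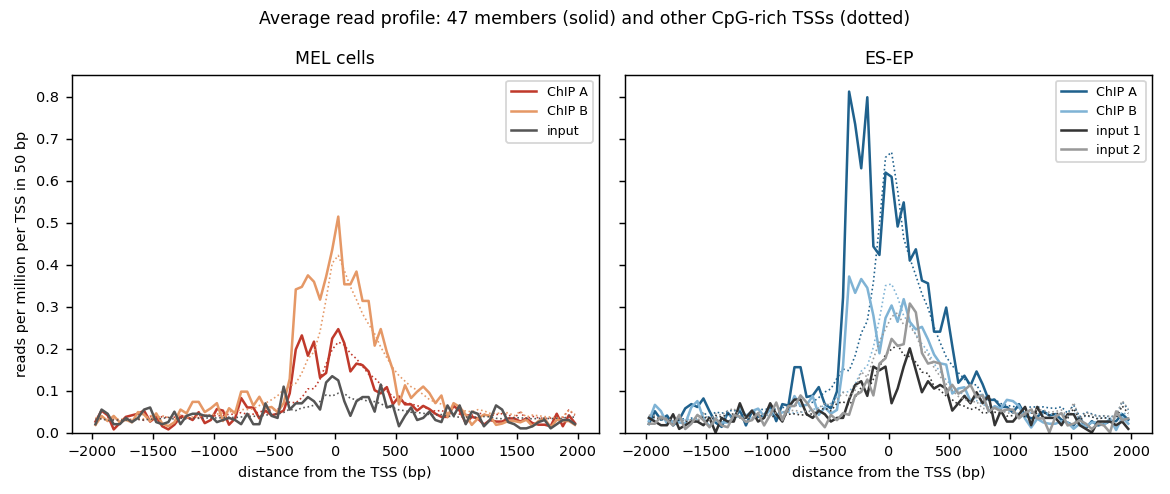
Average RPM per TSS in bins of 50 bp against distance from the TSS in MEL cells (left) and ES-EP (right), for the 47 members (solid) and the other CpG-rich TSSs (dotted), with 1 line per ChIP preparation or input library. The members peak at 0.515 after the TSS in MEL preparation B and at 0.813 between 350 and 300 bp upstream in ES-EP preparation A.

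For 34 of 47 members (72.3%) the densest 200 bp of ChIP reads within 2 kb was centred within 250 bp of the TSS, against 43.9% of the other TSSs and 66.3% of the other CpG-rich TSSs. Within 500 bp of 11 members lies the start of another protein-coding gene, in every case on the opposite strand, 8 of them divergent and 3 inside the transcribed region. The closest pairs were Srsf11 with Lrrc40 (23 bp), Prpf31 with Tfpt (56 bp), Sf3a1 with Ccdc157 (57 bp) and Snrpd3 with 1110038D17Rik (70 bp). Reads at these shared promoters cannot be assigned to 1 of the genes.

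PU.1 ChIP in MEL cells was next compared directly with that in ES-EP. No member passed in the limma fit, where 0.179% of all TSSs were called. An unadjusted p below 0.05 was found at 2 of 47 members and at 1739 of the 22,312 other TSSs. limma on log2 CPM plus 0.5 called none of all TSSs in this comparison, so its lack of member calls says nothing about the members (1 had an unadjusted p below 0.05). The median log2 difference of MEL and ES-EP ChIP was -0.43 over the members, -0.21 over the other TSSs and -0.47 over the other CpG-rich TSSs, so that the members lay near other CpG-rich starts, and with median-ratio scaling it was 0.02 over the members and 0.21 over the other TSSs. The medians of members and other TSSs were -1.01 and -0.38 without ES-EP preparation B, and -0.94 and -0.53 without MEL preparation B. They were -0.02 and -0.08 without ES-EP preparation A, and -0.04 and -0.03 without MEL preparation A. With all preparations, the 11 members above 0 included U2af1l4, Prpf3, Snrpa1 and Snrpb. The members with the smallest p were U2af1 (log2 -1.74 ± 0.70, adjusted p = 0.478), Srsf12 (-1.91 ± 0.94, adjusted p = 0.607), Srsf4 (-1.37 ± 0.72, adjusted p = 0.616) and Prpf4b (-1.32 ± 0.69, adjusted p = 0.617). Scaled ChIP reads of Srsf4 were 2.53-fold higher in ES-EP (counting interval 2.10 to 3.06), those of U2af1 3.38-fold (1.91 to 6.30) and those of Prpf4b 2.37-fold (1.34 to 4.35), and the 4 preparations did not overlap at any of these genes. The inputs were also higher in ES-EP, at 3.47 against 0.467 RPM for Srsf4, 4.67 against 1.64 for U2af1 and 1.74 against 0 for Prpf4b. Relative to input, Srsf4 leaned to MEL cells, with a difference of enrichment of 1.28 ± 1.27 (limma adjusted p = 0.947). Median-ratio scaling called Srsf4 lower in MEL ChIP (log2 -0.93, limma adjusted p = 0.0308), along with 388 of all TSSs in either direction. These intervals cover counting error only, and the ES-EP preparations of Srsf4 stood at 43.3 and 20.7 RPM.

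Preparations did not overlap at 9 members with higher ES-EP levels, where 19% of all TSSs did so, and at 1 with higher MEL levels, U2af1l4, where 12% did. Log2 differences beyond 1 in size were also seen for Snrpf (-1.27), U2af2 (-1.14), Sf3a3 (-1.13), Srsf6 (-1.07), Snrpn (-1.05), Snrpe (-1.04), Srsf5 (-1.03), Prpf19 (-1.02) and, in the other direction, U2af1l4 (1.43), and none was called.

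The difference of enrichment, which is the MEL difference of ChIP and input minus that of ES-EP, tested whether the relation to input changed between the cell types. No member was called, where 0.00447% of all TSSs were, and 3 of 47 had an unadjusted p below 0.05, as did 1527 of the 22,312 other TSSs. With log2 CPM plus 0.5, 2 members did so and none was called, where 73 of all TSSs were. The median difference of enrichment was 0.02 over the members, 0.38 over the other TSSs and 0.59 over the other CpG-rich TSSs. This order depends on single preparations. The medians of members and other TSSs were 0.75 and 0.61 without MEL preparation A, and -0.35 and 0.16 without B. They were 0.51 and 0.47 without ES-EP preparation A, and -0.25 and 0.29 without B. The smallest p of the limma fit with all preparations were those of Snrpb (3.48 ± 1.34, adjusted p = 0.506), Srsf6 (2.93 ± 1.30, adjusted p = 0.637), Prpf4b (2.68 ± 1.30, adjusted p = 0.705) and Snrpb2 (2.67 ± 1.39, adjusted p = 0.745), all on the side of MEL cells. Each of these 4 genes had 0 or 1 read in the MEL input. The standard errors of this difference ran from 1.09 to 1.61 on the log2 scale over the members.

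Across the 47 members the 2 preparations of MEL cells correlated with r = 0.79 and those of ES-EP with r = 0.87 (log2 of RPM plus 0.5), and the 4 pairings of a MEL with an ES-EP preparation gave r from 0.80 to 0.85. These points share libraries, window and base composition, and genes are not independent replicates, so the values describe the order of the members only. The log2 differences from input, which use the shallower inputs, correlated with r = 0.48 between the cell types.

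**Figure D4:**
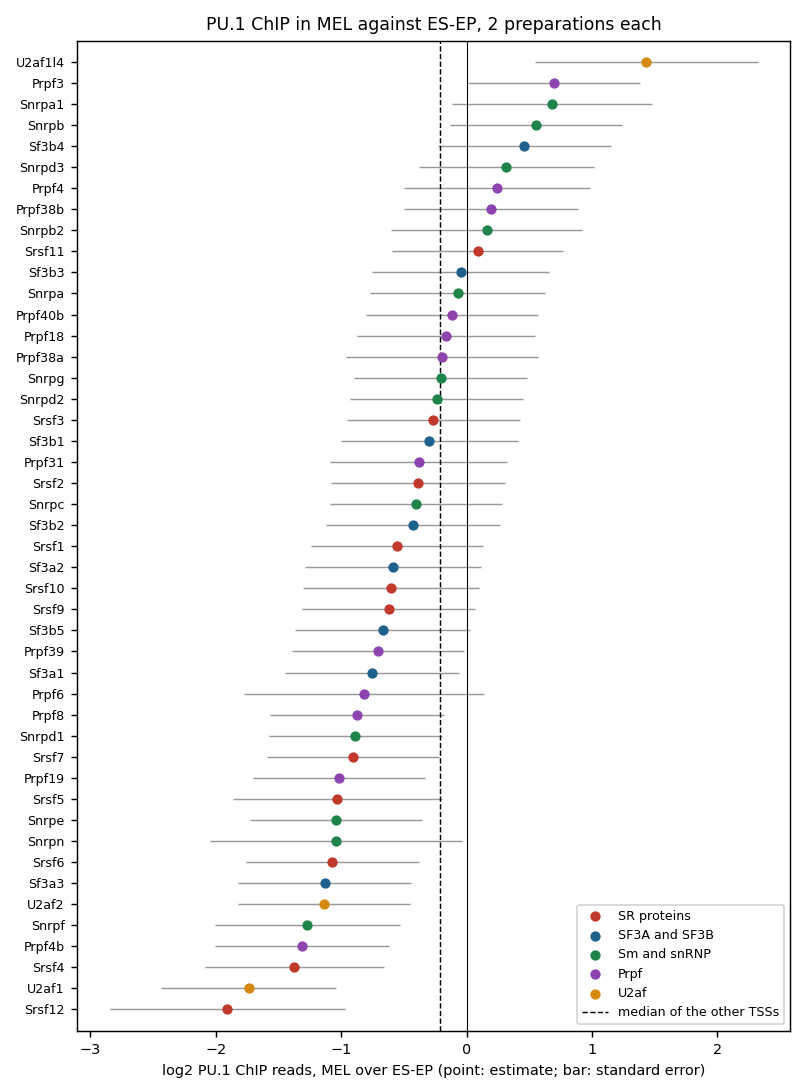
Log2 ratio of PU.1 ChIP in MEL cells over ES-EP for 46 members, with the limma estimate (point) and its standard error (bar), 2 preparations per cell type; the dashed line is the median of the other TSSs at -0.21. Estimates run from -1.91 (Srsf12) to 1.43 (U2af1l4) and none was called.

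Sequence features of the 500 bp windows, which played no part in choosing the members, differed from those of other genes. The median GC share was 60.4% against 57.2% at the other TSSs, and the median CpG ratio was 0.88 against 0.59. CCGGAAG, a word with the GGAA core preceded by CC that many Ets proteins can bind, was present on either strand in 22 of 47 members (46.8%), against 14.2% of the other TSSs and 23.8% of the other CpG-rich TSSs. GAGGAAG, closer to the purine-rich sequence known for PU.1, was present in 8 of 47 (17.0%) against 21.4% of the other TSSs and 19.5% of the other CpG-rich TSSs, and GAGGAA, which it contains, in 14 (29.8%) against 41.5%. GGGCGG was found in 72.3% against 52.6%, CCAAT in 55.3% against 47.9% and TATAAA in 12.8% against 16.7%. Of 29 CCGGAAG words in members, 19 began within 100 bp of the TSS, in 17 genes. Nearly all windows hold a bare GGAA core, 95.7% of the members and 99.1% of the other TSSs, so that this core alone does not set windows apart. The windows of Srsf6, which was called higher in MEL cells, and of Prpf40b hold no such core.

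CCGGAAG words within 100 bp of the TSS of 8 members are shown with 11 bases on each side, in the direction of the gene, and capitals mark CCGGAAG or its reverse complement. Sf3a1 (chr11:4060339-4060367), Sf3a3 (chr4:124392004-124392032), Snrpb2 (chr2:142888766-142888794), Sf3b2 (chr19:5295451-5295479, reverse strand) and Prpf18 (chr2:4573156-4573184, reverse strand) carry it across or next to the TSS, and the stretch runs into the first exon. Prpf4b (chr13:34967316-34967344), Prpf19 (chr19:10969642-10969670) and Srsf11 (chr3:157699657-157699685, reverse strand) carry it within 100 bp upstream, which for Srsf11 lies in the first exon of the divergent gene Lrrc40. All positions are mm9.
Sf3a1: agagggcgggaCCGGAAGtgctcccgcgg
Sf3a3: cccccaagacaCTTCCGGgacacgcggaa
Snrpb2: ttggccgccctCTTCCGGcgcggggaagc
Sf3b2: ggattacgcaaCCGGAAGtttctggaagt
Prpf18: cctgatttccgCCGGAAGcggctccggca
Prpf4b: gccccctagccCCGGAAGttacgttccgc
Prpf19: tggagcgctcgCCGGAAGaagccgagcca
Srsf11: aaaagctcacaCCGGAAGccccgaccacg

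GAGGAAG is shown in the same way for Prpf38b and Srsf9, which with Prpf4b are the 3 of 8 members with that word whose ChIP was above input in every preparation of both cell types. They are Prpf38b (chr3:108714791-108714819, reverse strand, in which it starts at position -163) and Srsf9 (chr5:115777136-115777164, forward strand, with the reverse complement at position -39). The word also begins at the Prpf6 start, where the ChIP reads were few. Of all 47 members, 20 were above input in every preparation of both cell types, so 3 of 8 is not a higher share. A link between the word and occupancy was not tested.
Prpf38b: caaagtcccagGAGGAAGccaccagcccg
Srsf9: tcccgcccccgCTTCCTCacggcttccgc

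Members with CCGGAAG had median log2 differences from input of 1.39 (MEL cells) and 0.89 (ES-EP), and those without it 0.97 and 0.88. At the other CpG-rich TSSs the medians were 1.13 and 0.76 with CCGGAAG and 1.11 and 0.38 without, and over all other TSSs they were 0.99 and 0.63 with it and 0.36 and 0.06 without. The 8 members with GAGGAAG had medians of 2.51 in MEL cells and 0.93 in ES-EP, against 1.00 and 0.88 in the 39 without, and at the other CpG-rich TSSs the medians were 1.32 and 0.77 with it and 1.06 and 0.40 without. In MEL cells these 8 ran from -1.23 (Prpf6) to 3.56 (Prpf4b). Prpf4b and Snrpb2 (2.91) had no MEL input read, so their MEL values rest on the prior count of the fit. The medians describe words in windows, not bound sites, and 21 members have neither word, Sf3b1 and Sf3b5 among them. Sf3a2 and Srsf2 also count as having neither word. The GAGGAAG of each, shown above, lies upstream of the 500 bp window, within the 200 bp that held their upstream reads.

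A further list of 62 spliceosome and splicing regulator genes outside the 6 name groups, of which 61 were found in the annotation, served for comparison. Of these, 5 (8.20%) were called higher for MEL cells, 3 (4.92%) for ES-EP, none was called between the cell types (4 at an unadjusted p below 0.05), and their median log2 differences from input were 1.11 and 0.70. These medians lay close to those of the 47 members, at 1.05 and 0.88.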

How the data were processed

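PU.1 ChIP and input libraries were sequenced by the authors on the Illumina GAII and aligned with ELAND to mm9, keeping unique reads with up to 2 mismatches. The deposited files hold the position of each aligned read and no other measured value, and the peak calls of the study were not used. Here the 5′ end of each read was shifted (70 bp in MEL cells, 65 bp in ES-EP) and counted in 500 bp around 1 TSS per protein-coding gene (GENCODE vM1, mm9). The 11 libraries were summed by the letter of the label, which was taken to mark the chromatin preparation, giving 2 ChIP preparations per cell type, 1 MEL input and 2 ES-EP inputs.

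Counts were fitted with limma 3.58.1 (voom, prior count 0.5, R 4.3.3) with total reads as library size, no filter and Benjamini-Hochberg adjustment over 22,359 TSSs. The fit has 4 groups and 3 residual degrees of freedom, and the lone MEL input is assumed to vary like the other groups. The fit was also run on simulated counts. These held no overall difference between preparations like that seen in the data, so they do not vouch for the calls. Counting intervals are exact at 95% and, like the floor of 3 reads, cover counting error only. Other work used Python 3.11.15, NumPy 2.4.6, pandas 2.3.3 and SciPy 1.17.1. The alternatives covered the tool, pseudocount, scaling, filter, window, TSS, replicate block, libraries and left-out replicates.

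The members, the comparison list and the tests were chosen with earlier results of these data known. Of the members, 1 is not reported here by name and enters counts and medians only. Each other member is named at least once, and reads per preparation are given for 25: the 8 highest and 6 lowest by mean log2 difference from input, the 4 with the smallest p between the cell types and in the difference of enrichment, those beyond 1 in log2 between the cell types, and up to 6 with GAGGAAG or CCGGAAG nearest to the TSS. Reads of Sf3a2, Srsf2 and Srsf3 upstream of the TSS were added after their values were seen. The study describes duplicate independent chromatin preparations but does not tie them to these letters, nor say whether the ES-EP inputs are separate, so p-values may measure technical spread. Fits with each library as a sample were an alternative.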

Additional observations from a re-analysis of the deposited data

Results flagged for a closer look

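Over 52 groups of 4 libraries, 4 had 1 library far from the other 3, where chance flags about 1 in 20 groups of continuous values. A single read against zeros, as in Snrpn and Srsf12, is always set apart in this way. Srsf6 in MEL cells had 6.35 RPM in the second library of preparation B (27 reads), against 0.731 to 1.65 in the other libraries. Prpf6 had 1.95 RPM in the first library of MEL preparation A (4 reads), against 0 to 0.274 in the others. Srsf12 had 0.487 RPM in the first library of MEL preparation A and Snrpn had 0.274 in the second, each from 1 read, with 0 in the others.

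At 4 of 47 members (8.51%), where 6.14% of all TSSs did so, every MEL preparation lay on one side of the input and every ES-EP preparation on the other. The share is near that of all TSSs, and this opposition was not tested as such. The log2 difference of enrichment was -0.69 for Sf3b2 (-0.35 in MEL cells, 0.34 in ES-EP), -2.33 for Snrpn (-1.33 and 1.00), -2.31 for Srsf12 (-1.33 and 0.98) and 0.84 for U2af1l4 (-0.05 and -0.90). At U2af1l4 the MEL preparations stood at 0.702 and 0.716 RPM against 0.701 in the input. The limma test of the difference of enrichment called none of them. Snrpn and Srsf12 held at most 3 reads in any preparation.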

How the results depend on the processing

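In MEL cells the 3 members called higher became 1 with at least 20 reads per window (218 of all TSSs, from 635), 5 with each library as a sample (1156), 14 with the exact binomial test (2312), 0 with log2 CPM plus 0.1 or plus 0.5 (14 and 11 at an unadjusted p below 0.05 by limma, in either direction here and below), 0 with median-ratio scaling (8 unadjusted, and 99 of all TSSs called), 1 in 1000 bp (356) and 7 in 200 bp (1037), so that the counts over all TSSs moved the same way. The CPM settings called 24 and 0 of all TSSs. In ES-EP the 4 became 13 with the exact binomial test (2023 of all TSSs, from 501) and 0 with log2 CPM plus 0.1 or plus 0.5 (10 unadjusted each, and 38 and 0 of all TSSs called). Leaving out 1 replicate gave from 0 to 7 in each cell type. With the preparation letter as a replicate block the counts were 1 in MEL cells (183 of all TSSs) and 0 in ES-EP (8 unadjusted, limma, and 106 of all TSSs called), but the same letters did not deviate together (r = -0.102 over 12052 TSSs), so they were not taken as pairs. A crossed pairing, added after seeing the data, gave 2 and 4, and 2 between MEL cells and ES-EP, where it called 915 of all 22,359 TSSs. Median-ratio scaling gave 1 there, Srsf4, with 388 of all TSSs called. The difference of enrichment called none in any setting. It turned to -0.0203 for Prpf4b in 200 bp and to -0.76 for Snrpb2 in 1000 bp. Srsf12 between MEL cells and ES-EP turned to 0.16 with the libraries numbered 1 only and to 0.0818 in 200 bp. The cause was not tested. Over all TSSs the count called higher was 635 in MEL cells (0 to 2312 over the settings) and 501 in ES-EP (0 to 2023). Depth limits single genes, since 25 members had 1 to 3 reads in the MEL input and 3 had none.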
